A study of Mus musculus with 31 samples.

Results

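The retroelement silencing machinery is described here through 10 genes, Trim28, Setdb1, Atf7ip, Mphosph8, Morc2a, Morc3, Hells, Zfp809, Ehmt1 and Ehmt2, which were named for their known roles in this pathway, with earlier results of these data known. They are 10 of the 55492 rows of a table of gene read counts, and all 10 were among the 22172 rows with enough counts to be tested. RNA was sequenced from long-term haematopoietic stem cells (LT-HSCs), the rarest and most durable blood stem cells of the marrow, sorted from mouse bone marrow as lineage-negative Sca1+ cKit+ CD48- CD150+ cells. The mice had received mutant marrow mixed with a 10-fold excess of wild-type marrow, and from 4 weeks after transplantation they were treated for 8 weeks. The VFDM groups carried SclCre, the FF1 transgene that encodes JAK2-V617F (the activated kinase of myeloproliferative neoplasms), a GFP reporter and a homozygous Dnmt3a deletion, while the VF groups carried SclCre, FF1 and GFP alone. COMBO mice received both drugs, IFN mice pegylated interferon alpha at 25 ug/kg under the skin each week, AZA mice the DNA-demethylating nucleoside 5-azacytidine at 2 mg/kg into the peritoneum each day, and vehicle mice neither. There were 4 libraries in each group and 3 in VFDM COMBO. JAK2-V617F, the Cre driver and the transplant setting were common to all 8 groups, so no group without JAK2-V617F enters a comparison. Replicates are separate samples by their labels, which do not say whether each came from its own mouse, so a p-value here weighs a difference against a spread that may be technical.

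Retroelements, the remnants of retroviruses and other copied elements that fill much of the mouse genome, are kept silent by repressive histone and DNA methylation. KRAB zinc finger proteins such as ZFP809 bind element sequence and bring in TRIM28, which in turn brings the histone methyltransferase SETDB1 with its partner ATF7IP to place trimethyl marks on histone H3 lysine 9. The HUSH complex, of which MPHOSPH8 is the chromodomain subunit, spreads and maintains that mark with the ATPase MORC2A, MORC3 closes chromatin over endogenous retroviruses, HELLS remodels nucleosomes so that DNA methyltransferases can reach repeats, and the EHMT1-EHMT2 pair (GLP and G9a) places mono- and dimethyl marks on the same lysine. Loss of these factors can release element transcripts that trigger an interferon response, and azacytidine is known to do so by removing DNA methylation. The table counts genes and not element copies, so element RNA itself was not analysed here.

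Library totals ran between 17782394 and 73910928 counts, and 17087 to 28851 rows were detected per library, with 8 libraries under 20000, all of them from AZA or COMBO groups. The targeted gene followed the genotype labels on average: Dnmt3a stood at 117 ± 5.33 CPM (counts scaled to library size, SD, n = 4) in VFDM vehicle and 234 ± 68.9 CPM in VF vehicle, and the difference averaged over the 4 treatments was -1.08 ± 0.11 on the log2 scale (SE, edgeR quasi-likelihood test, adjusted p = 1.03e-07). The library labelled VFDM IFN 3 went against its label at 162 CPM, against 102 to 111 CPM in the other VFDM IFN libraries. VF COMBO 3 also went against its label at 104.5 CPM, against 139.8 to 193.3 CPM in the other VF COMBO libraries. The VFDM vehicle range was 108.6 to 119.7 CPM. The calls of Atf7ip and Ehmt2 in VF COMBO, and of Ehmt1 against VF AZA, were lost without VF COMBO 3. Short non-coding RNAs took 22.3, 24.9, 8.49 and 37.5% of the counts in VF vehicle libraries 1 to 4, against 5.02 to 10.5% in the other 27 libraries. The summed level of 10 LT-HSC markers ran between 772 and 922 CPM in VFDM COMBO, against 1861 to 2085 CPM in VFDM vehicle, and that of 6 erythroid markers between 808 and 3017 CPM in VFDM COMBO, against 53.5 to 61.5 CPM in VFDM vehicle. In that comparison 6 of 6 erythroid, 3 of 6 neutrophil and monocyte and 0 of 10 LT-HSC markers rose, and 6 of the 10 LT-HSC markers fell. Of all rows 5.52% were called higher there and 10.5% lower. The VFDM COMBO cells therefore did not hold the LT-HSC marker levels of the vehicle cells. The LT-HSC sum was also below the vehicle range in VFDM AZA (1462 to 1765 CPM) and VFDM IFN (1247 to 1645 CPM). Erythroid sums there were above it, at 105 to 357.5 CPM and 92.58 to 181.5 CPM. Summed megakaryocyte markers were 303 to 707 CPM in VFDM IFN, against 83.1 to 174 CPM in VFDM vehicle. They were 615 to 756 CPM in VF IFN, against 151 to 332 CPM in VF vehicle. The part of these shifts in the AZA and IFN results was not tested. In VF COMBO the erythroid sum was 94.1 to 506 CPM, against 51.0 to 99.4 CPM in VF vehicle, with 4 of 6 markers higher, and the LT-HSC sum 923 to 1381 CPM, against 1353 to 1462 CPM in VF vehicle, with 1 of 10 higher and 1 lower. Of all rows 4.16% were called higher in VF COMBO and 4.13% lower. Cd48, whose protein the sort selected against, passed upwards under COMBO in both genotypes (log2 difference 1.54 in VFDM and 1.80 in VF, adjusted p of 0.0358 and 0.0192). In bulk RNA, fewer cells of a type and less RNA per cell cannot be told apart.

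All 10 genes were expressed in all 31 libraries, at mean levels between the 77.5 and 99.2 percentile of the tested rows. Per kilobase of all annotated exons, Trim28 stood highest at 70.3 ± 10.1 CPM per kb (SD over 31 libraries), followed by Ehmt2 at 28.8, Morc3 at 25.2, Atf7ip at 21.5, Ehmt1 at 18.99, Hells at 17.3, Mphosph8 at 14.5, Zfp809 at 14.3, Setdb1 at 13.6 and Morc2a at 12.3 CPM per kb. Trim28 was above Ehmt2 in 31 of 31 libraries, whereas Mphosph8 was above Zfp809 in 19 and Zfp809 above Setdb1 in 20, so the lower part of this order was not separated. The place of Atf7ip rests on the length used: its longest transcript, 8.06 kb against 20.7 kb of exons in all, put it second at 55.4 CPM per kb. The highest of the 8 group means was 1.22 times the lowest for Morc2a, 1.30 times for Atf7ip, 1.36 times for Setdb1 and Trim28 and 1.39 times for Ehmt1. It was 1.47 times the lowest for Morc3, 1.59 times for Mphosph8, 1.63 times for Ehmt2, 1.66 times for Hells and 1.81 times for Zfp809.

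The promoters of the genes that passed a test against vehicle (Setdb1, Atf7ip and Ehmt2) are shown beside that of Isg15, a ubiquitin-like interferon target. They are shown because interferon was a treatment and azacytidine lowers DNA methylation at CpG. Methylation of these CpG was not measured here. Each is the part of the 250 bases before the first listed RefSeq start (GRCm38.p6) that lies outside protein-coding exons, read 5′ to 3′ on the gene's strand. The windows are chr3:95357203-95357452 on the minus strand for Setdb1, chr6:136518601-136518801 on the plus strand for Atf7ip, chr17:34898266-34898468 on the plus strand for Ehmt2 and chr4:156200819-156201068 on the minus strand for Isg15. Capitals mark CpG in the first 3 and the matches to the interferon-stimulated response element in Isg15.
Setdb1: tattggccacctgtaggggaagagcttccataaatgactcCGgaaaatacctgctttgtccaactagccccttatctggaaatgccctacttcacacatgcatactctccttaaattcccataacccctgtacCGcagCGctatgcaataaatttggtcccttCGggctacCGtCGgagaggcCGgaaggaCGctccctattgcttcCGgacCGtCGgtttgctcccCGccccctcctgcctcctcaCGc
Atf7ip: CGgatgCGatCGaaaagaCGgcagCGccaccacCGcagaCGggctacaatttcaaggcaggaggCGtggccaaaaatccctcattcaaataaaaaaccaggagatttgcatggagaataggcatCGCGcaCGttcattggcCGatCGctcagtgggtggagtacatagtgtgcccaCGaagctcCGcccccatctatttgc
Ehmt2: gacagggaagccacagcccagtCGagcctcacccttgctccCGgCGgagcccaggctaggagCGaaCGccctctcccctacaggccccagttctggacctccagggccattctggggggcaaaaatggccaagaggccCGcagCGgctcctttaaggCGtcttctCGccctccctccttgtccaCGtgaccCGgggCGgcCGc
Isg15: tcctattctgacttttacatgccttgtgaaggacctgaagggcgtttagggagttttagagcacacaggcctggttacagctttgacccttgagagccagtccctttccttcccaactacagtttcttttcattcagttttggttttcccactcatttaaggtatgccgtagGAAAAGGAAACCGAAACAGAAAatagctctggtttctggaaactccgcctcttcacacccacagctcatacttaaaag
The response element was searched on both strands as a pair of GAAA words with 2 bases of any kind between them. Isg15 held 3 overlapping matches, 0 of the 10 silencing genes held a match in the 250 bases, and 2.98% of all 32851 promoter windows did. A pair of E2F motifs of S-phase genes, TTTCCCGC and TTTGGCGC on both strands, matched in the Hells window alone among the 10, and in 1.30% of all windows. The 10 windows held 11 (Zfp809) to 39 (Morc2a) CpG, and 8 of the 10 were at or above the upper quartile of all windows, which was 16 with a median of 6. A missing match says only that these letters are not in these windows.

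The first question put to the data was whether either drug, or both, moved the machinery away from vehicle within a genotype. Few of the genes moved, and none by as much as 2-fold among those that passed the test. Setdb1 rose in VFDM COMBO, Atf7ip rose and Ehmt2 fell in VF COMBO, and by edgeR 0 of 10 passed in each of the 4 single-drug comparisons with vehicle. At an unadjusted p under 0.05 these held 3 (VF IFN), 6 (VF AZA), 0 (VFDM IFN) and 0 (VFDM AZA) genes, and DESeq2 called Ehmt2 in VF IFN and Morc3 and Zfp809 in VF AZA, and limma voom Trim28 in VFDM IFN. By edgeR 2.43, 1.2, 0.965 and 0.925% of all rows were called in these 4 comparisons. The 2 of 10 in VF COMBO, 1 in each direction, stand against 8.29% of all 22172 rows called there, 4.16% higher and 4.13% lower. The 1 of 10 in VFDM COMBO stands against 16% of all rows called, 5.52% higher and 10.5% lower. With 10 genes, neither share can be set apart from that of all rows.

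**Figure D1:**
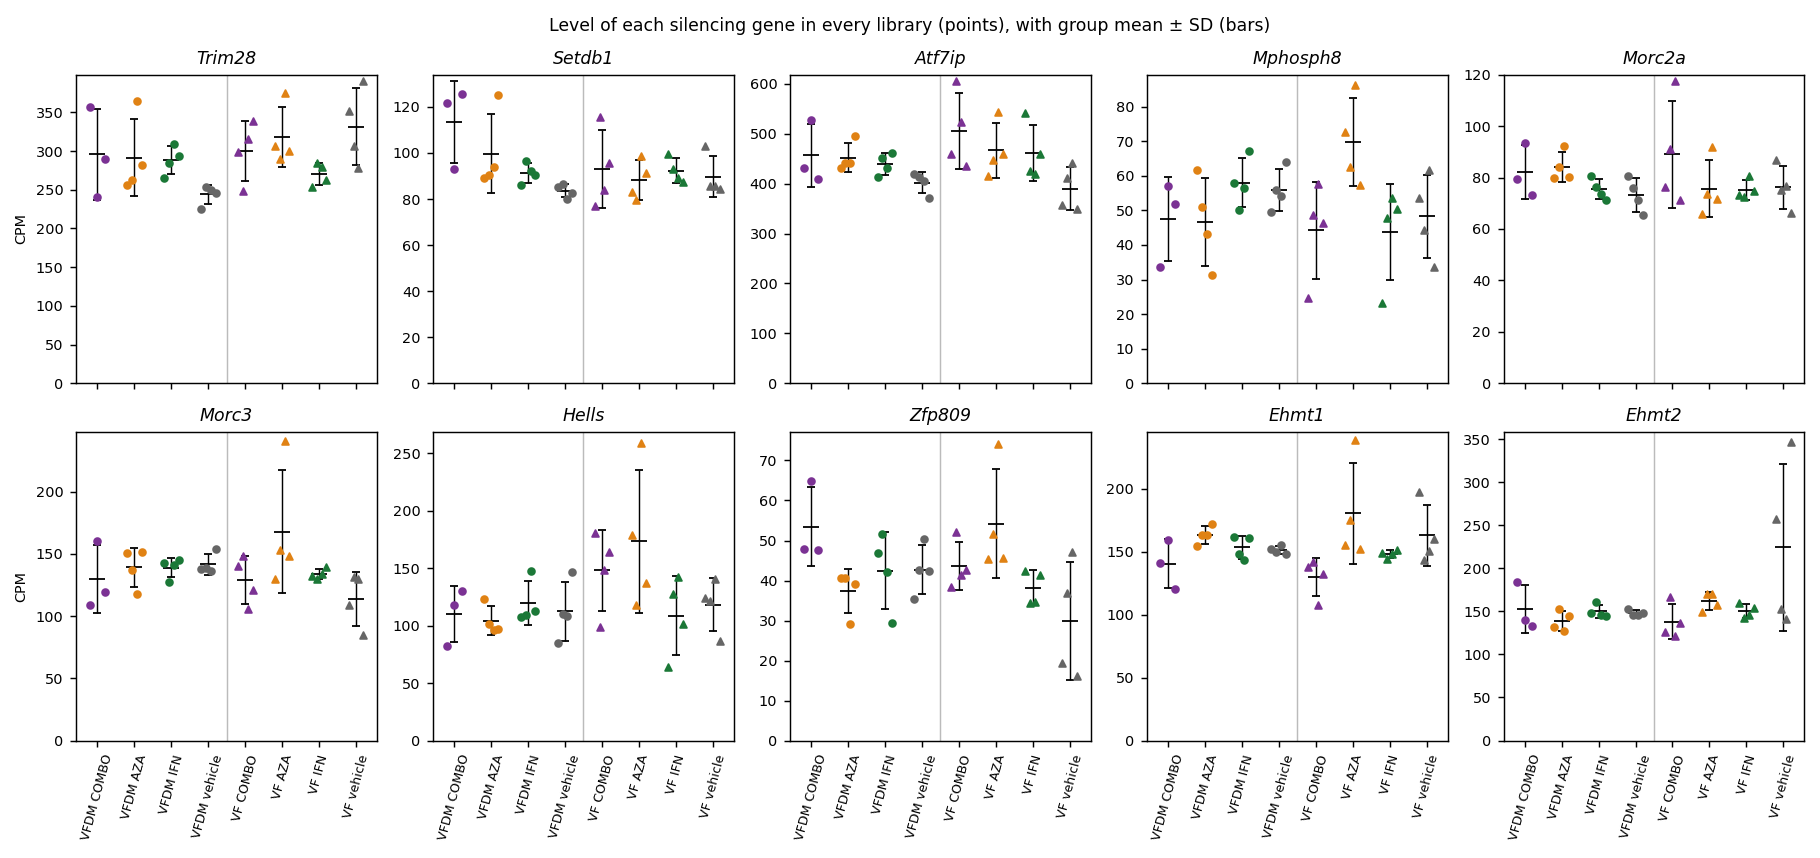
Level of each of the 10 silencing genes in CPM (vertical axis, 1 panel per gene) in every library, by group on the horizontal axis, with points for libraries and bars for the group mean and SD. For Ehmt2 the VF vehicle libraries 1 and 4, at 257 and 347 CPM, stand above the other 29 libraries, and for Setdb1 2 of the 3 VFDM COMBO libraries are above 120 CPM.

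Setdb1 (ENSMUSG00000015697, chromosome 3, 95323525 to 95357202, minus strand) encodes the methyltransferase that writes the histone mark at the centre of this pathway. It stood at 122, 92.9 and 126 CPM in VFDM COMBO, against 85.3, 86.6, 80.1 and 82.6 CPM in VFDM vehicle. All 3 VFDM COMBO libraries lay above all 4 vehicle libraries, a separation upwards that 13.3% of all rows showed in this comparison. The means were 113 ± 17.9 CPM in VFDM COMBO and 83.7 ± 2.90 CPM in VFDM vehicle, a log2 difference of 0.44 ± 0.14 (SE, 95% interval 0.14 to 0.73) with adjusted p = 0.0314 by edgeR's quasi-likelihood test. The call was lost without VFDM COMBO library 2 or library 4, with adjusted p up to 0.107. The library with the lowest Setdb1 level, VFDM COMBO 3, had the highest erythroid sum of the group at 3017 CPM, against 808 and 984 CPM in VFDM COMBO 2 and 4, and the part of the marker shift in the result was not tested.

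By group mean, the other VFDM groups also placed Setdb1 above vehicle without passing the test. VFDM IFN held 86.0 to 96.4 CPM and overlapped VFDM vehicle, at 80.1 to 86.6 CPM. VFDM AZA held 89.1, 90.5, 93.9 and 125 CPM, all above the highest VFDM vehicle library, with a log2 difference of 0.25 (adjusted p = 0.574, edgeR), and this separation upwards was found for 5.11% of all rows. In VF COMBO the levels were 76.8, 116, 84.1 and 95.8 CPM, against 103, 85.4, 85.8 and 84.4 CPM in VF vehicle, and the groups overlapped (log2 difference 0.05, adjusted p = 0.848, edgeR). The COMBO response of VFDM minus that of VF was 0.38 with adjusted p = 0.267 (edgeR interaction term), so the response was not shown to differ between the genotypes. Setdb1 shares 75 exonic bases with Cers2 and 249 with Gm37500, both on the opposite strand. The strand setting of the counting is not given in the sources used here.

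Atf7ip (ENSMUSG00000030213, chromosome 6, 136506167 to 136610862, plus strand) encodes the cofactor that keeps SETDB1 stable and in the nucleus. It stood at 460, 606, 523 and 436 CPM in VF COMBO, against 357, 412, 441 and 350 CPM in VF vehicle. The groups overlapped only through VF COMBO library 4 and VF vehicle library 3. The means were 506 ± 75.9 CPM in VF COMBO and 390 ± 43.7 CPM in VF vehicle, a log2 difference of 0.38 ± 0.12 (SE, 95% interval 0.14 to 0.62, adjusted p = 0.04, edgeR). Without VF vehicle libraries 1 and 4, which hold the highest Ehmt2 levels, the difference was 0.27 and adjusted p = 0.363, a comparison chosen after the data were seen. Leaving out VF COMBO 2, VF COMBO 3, VF vehicle 1 or VF vehicle 4 alone also ended the call, with adjusted p up to 0.112. The erythroid rise in VF COMBO given above moves with this group and its part in the result was not tested.

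In VFDM mice Atf7ip held 431, 528 and 410 CPM under COMBO, against 419, 413, 405 and 371 CPM in VFDM vehicle. Libraries 2 and 3 were above the vehicle range, library 3 by more. Averaged over the genotypes, Atf7ip rose under COMBO by 0.28 ± 0.09 on the log2 scale (SE, 95% interval 0.10 to 0.46, adjusted p = 0.0157, edgeR), in a comparison that called 23.5% of all rows. That call was lost without VFDM COMBO 3 (adjusted p = 0.054) and without VF vehicle 1 and 4 (log2 difference 0.25, adjusted p = 0.0564). VFDM AZA levels of 430 to 495 CPM all lay above the VFDM vehicle range of 371 to 419 CPM, as 5.11% of all rows did, without passing the test. Atf7ip shares 83 exonic bases with Gm44140 on the opposite strand.

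Ehmt2 (ENSMUSG00000013787, chromosome 17, 34898469 to 34914052, plus strand), the G9a methyltransferase that represses the MERVL family of retroviruses in mouse embryonic stem cells, gave the largest called difference among the 10 genes. It stood at 126, 167, 121 and 136 CPM in VF COMBO, against 257, 152, 141 and 347 CPM in VF vehicle. The vehicle group split into 2 libraries at the level of every other group and 2 far above it. The means were 138 ± 20.3 CPM in VF COMBO and 224 ± 97.0 CPM in VF vehicle, and the log2 difference was -0.70 ± 0.17 (SE, 95% interval -1.06 to -0.34, adjusted p = 0.0099, edgeR). Without VF vehicle libraries 1 and 4 the difference was -0.07 and adjusted p = 0.883, and leaving out VF vehicle 1, VF vehicle 4 or VF COMBO 3 alone also ended the call, with adjusted p up to 0.141.

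**Figure D2:**
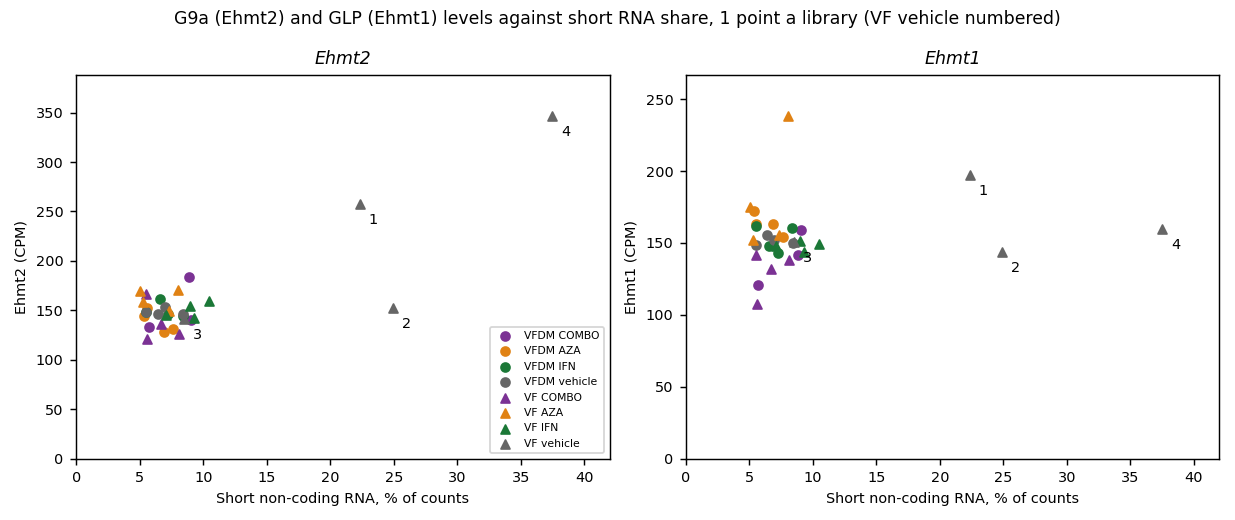
Level of Ehmt2 (left) and Ehmt1 (right) in CPM (vertical axes) against the share of counts on short non-coding RNAs in percent (horizontal axes), 1 point per library, with circles for VFDM, triangles for VF, a colour per treatment and the VF vehicle libraries numbered. VF vehicle 1 and 4 stand apart for Ehmt2 at 257 and 347 CPM, while VF vehicle 2, with a share of 24.9%, is at 152 CPM, and Ehmt1 is at 198, 144 and 160 CPM in VF vehicle 1, 2 and 4.

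The same 2 libraries entered every other Ehmt2 comparison with VF vehicle. The log2 difference was -0.58 in VF IFN (adjusted p = 0.0711, edgeR), -0.47 in VF AZA (adjusted p = 0.186) and -0.60 in VFDM vehicle against VF vehicle (adjusted p = 0.0928), and these comparisons share their vehicle libraries. In VFDM mice Ehmt2 was flat, at 184, 140 and 133 CPM under COMBO, against 153, 146, 146 and 148 CPM in VFDM vehicle. VF vehicle libraries 1, 2 and 4, with short-RNA shares of 22.3, 24.9 and 37.5%, held 257, 152 and 347 CPM of Ehmt2. Over 31 libraries, Pearson's r of log2 CPM with that share was 0.78 for Ehmt2, -0.69 for Zfp809 and -0.51 for Morc3. It was 0.46 for Trim28, -0.45 for Atf7ip and between -0.28 (Mphosph8) and 0.17 (Ehmt1) for the others. The part of RNA composition in the differences of any of these genes was not tested. Over the 8 groups together, Ehmt2 was the one gene of 10 for which any difference passed (adjusted p = 0.0376, edgeR), where 15.9% of all rows did. That call was lost in 25 of 31 fits with 1 library left out, and limma voom called Trim28 in its place.

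Ehmt1 (ENSMUSG00000036893, chromosome 2, 24789928 to 24919614, minus strand) encodes GLP, the partner of G9a. It stood at 138, 142, 108 and 132 CPM in VF COMBO, against 156, 175, 239 and 152 CPM in VF AZA, 149, 144, 148 and 151 CPM in VF IFN and 198, 144, 151 and 160 CPM in VF vehicle. All 4 VF COMBO libraries were below all libraries of the other 3 VF groups. Such a separation downwards was found for 2.55% of all rows against VF AZA, 8.31% against VF IFN and 8.80% against VF vehicle. Against VF AZA the means were 130 ± 15.2 CPM in VF COMBO and 180 ± 40.1 CPM in VF AZA, a log2 difference of -0.47 ± 0.13 (SE, 95% interval -0.74 to -0.21, adjusted p = 0.0438, edgeR), in a comparison that called 1.85% of all rows. The difference was -0.33 against VF vehicle (adjusted p = 0.101). The call against VF AZA remained when VF AZA library 1 or 4 was left out and was lost, with adjusted p up to 0.28, when any of the other 6 was.

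Trim28 (ENSMUSG00000005566, chromosome 7, 12999114 to 13031035, plus strand), the scaffold that KRAB zinc finger proteins recruit, did not pass by edgeR over all libraries in any of the 22 comparisons, while limma voom called it in VFDM IFN and VFDM COMBO against VFDM vehicle, in VFDM vehicle against VF vehicle and for any difference (adjusted p of 0.0437, 0.0309, 0.018 and 0.0231). Its levels in VFDM mice were 357, 240 and 290 CPM under COMBO, 257, 263, 364 and 283 CPM under AZA and 266, 285, 309 and 294 CPM under IFN, against 226, 254, 250 and 246 CPM with vehicle. All AZA libraries and all IFN libraries were above all VFDM vehicle libraries, separations found upwards for 5.11 and 5.87% of all rows. The log2 differences were 0.28 under COMBO, 0.26 under AZA and 0.24 under IFN, with adjusted p of 0.181, 0.544 and 0.944 (edgeR).

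In VF mice Trim28 was at 254, 285, 280 and 262 CPM under IFN, against 352, 307, 278 and 391 CPM with vehicle. The vehicle libraries again held the spread, with library 4 highest. The log2 difference was -0.30 (adjusted p = 0.308, edgeR), opposite in sign to that of VFDM IFN, and the difference between the genotypes' IFN responses was 0.54 with adjusted p = 0.601. VFDM vehicle lay wholly below VF vehicle (log2 difference -0.44, 95% interval -0.71 to -0.17, adjusted p = 0.0954), a separation downwards found for 6.87% of all rows.

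Zfp809 (ENSMUSG00000057982, chromosome 9, 22225714 to 22243354, plus strand), the KRAB zinc finger protein that recognises the primer binding site of murine leukaemia viruses, varied most between groups. It stood at 45.5, 51.6, 74.2 and 45.6 CPM in VF AZA, against 19.4, 37.0, 47.1 and 16.2 CPM in VF vehicle. VF vehicle libraries 1 and 4 were the lowest of all 31 libraries. The log2 difference was 0.85 (adjusted p = 0.0706, edgeR). VFDM AZA held 40.5, 40.7, 29.1 and 39.2 CPM, against 35.5, 42.7, 50.3 and 42.3 CPM in VFDM vehicle, and these overlapped. The VFDM AZA levels lay below all VF AZA levels, a separation downwards found for 2.15% of all rows. The AZA response of VFDM minus that of VF was -1.05 with adjusted p = 0.209 (edgeR interaction term).

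By edgeR over all libraries, Mphosph8, Morc2a and Morc3 passed in none of the 22 comparisons, while DESeq2 called Morc3 in VF AZA (adjusted p = 0.0306). Morc3 (ENSMUSG00000039456, chromosome 16, 93832121 to 93876073, plus strand), an ATPase that also restricts viruses, stood at 130, 153, 240 and 148 CPM in VF AZA, against 109, 131, 130 and 84.8 CPM in VF vehicle (log2 difference 0.56, adjusted p = 0.0708, edgeR). Library 3 alone set the upper end of that group. In vehicle mice Morc3 held 138, 138, 136 and 154 CPM in VFDM, against 109, 131, 130 and 84.8 CPM in VF, with no overlap and a log2 difference of 0.32 (adjusted p = 0.453), where 6.34% of all rows separated upwards. Morc2a (ENSMUSG00000034543, chromosome 11, 3649191 to 3690477, plus strand) ran between 65.3 and 117 CPM and was the steadiest of the 10 by group mean, but it shares 483 exonic bases with the antisense non-coding gene Tug1. Mphosph8 (ENSMUSG00000079184, chromosome 14, 56668248 to 56697430, plus strand) ran between 23.3 and 86.2 CPM, with a log2 difference of 0.53 in VF AZA against VF vehicle (adjusted p = 0.316) and -0.66 in VF COMBO against VF AZA (adjusted p = 0.162). Mphosph8 shares 384 exonic bases with the non-coding gene Gm16973 on the opposite strand.

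Hells (ENSMUSG00000025001, chromosome 19, 38930915 to 38971051, plus strand), the remodeller whose RNA is known to be high in dividing cells, stood at 179, 118, 259 and 138 CPM in VF AZA, against 124, 122, 141 and 86.7 CPM in VF vehicle. The 2 groups overlapped, and the log2 difference of 0.55 did not pass (adjusted p = 0.251, edgeR). In VFDM mice it was at 82.7, 118 and 130 CPM under COMBO, against 84.7, 110, 108 and 147 CPM with vehicle, so Hells did not separate these groups. Of 15 proliferation genes 7 rose in VFDM COMBO, where 5.52% of all rows were called higher. Their summed level was 3843 to 4922 CPM there, against 2209 to 3194 CPM in VFDM vehicle.

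**Figure D3:**
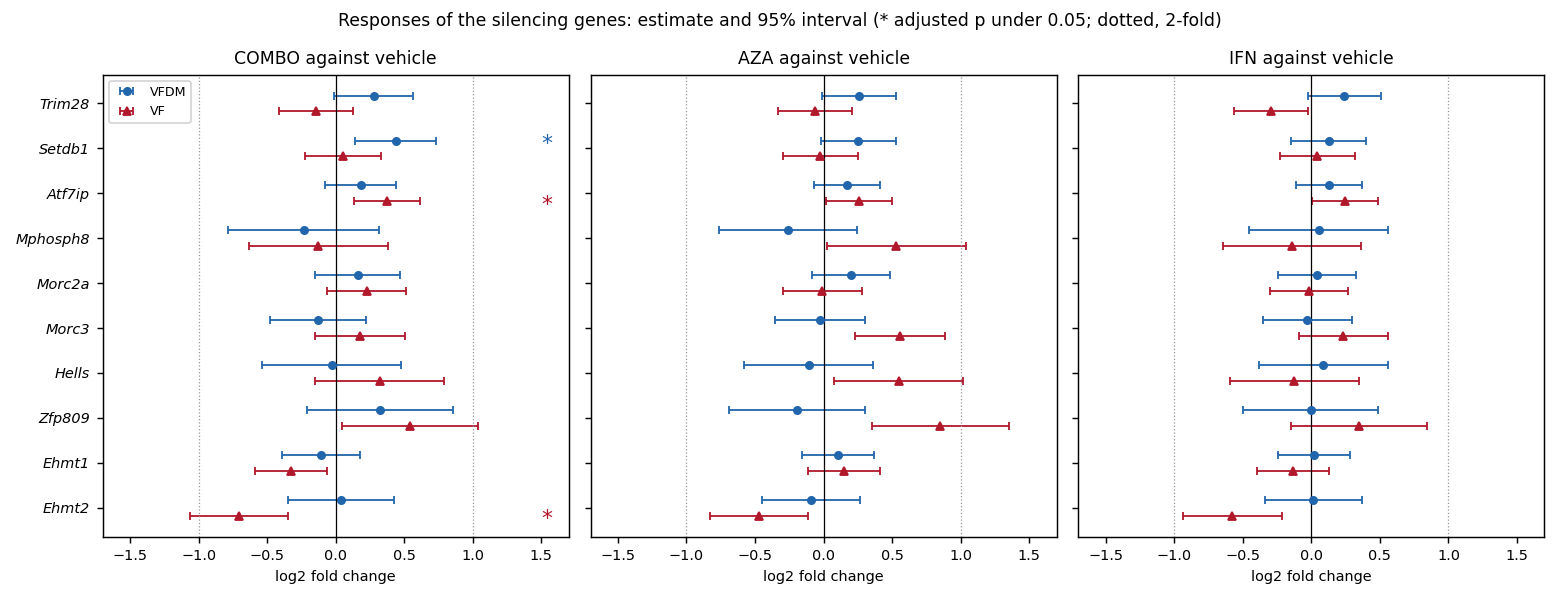
Log2 fold change of each silencing gene (rows) against the vehicle of its genotype under COMBO, AZA and IFN (panels), with edgeR estimates as points, 95% intervals as bars and dotted lines at 2-fold. Stars mark an adjusted p under 0.05, which are Setdb1 in VFDM COMBO at 0.44 and Atf7ip and Ehmt2 in VF COMBO at 0.38 and -0.70.

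Medians over the 10 genes were small in all 6 comparisons with vehicle. In VFDM mice the median log2 difference of the 10 genes was 0.10 under COMBO, 0.04 under AZA and 0.05 under IFN, against -0.08, -0.04 and -0.01 over all tested rows. In VF mice it was 0.12 under COMBO, 0.20 under AZA and -0.07 under IFN, against -0.11, -0.07 and -0.02 over all rows. The VF AZA value is the widest gap, and VF AZA library 3 was the highest of its group for 10 of the 10 genes. That library also had the fewest detected rows of its group (17942).

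The counts of 0 were read with their precision. Averaged over the genotypes, edgeR called 0 of 10 under IFN (2 at an unadjusted p under 0.05) and under AZA (3), where 3.1 and 1.71% of all rows were called, and DESeq2 and limma voom also called 0. For all 10 genes the 95% interval excluded a 2-fold change in VF IFN, VFDM IFN, VFDM AZA and VFDM COMBO, for 7 in VF AZA (not Mphosph8, Hells or Zfp809) and for 8 in VF COMBO (not Zfp809 or Ehmt2).

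The second question was whether loss of Dnmt3a set the machinery at another level. By edgeR 0 of 10 passed between VFDM and VF in vehicle (3 at an unadjusted p under 0.05), IFN (0), AZA (3) or COMBO (0) mice, or on average over the treatments (1), against 0.956, 0.00902, 0.74, 5.11 and 2.37% of all rows. DESeq2 called 0 in all 5, and limma voom called 1, Trim28 in vehicle mice. The 3 interaction terms also gave 0 of 10 by edgeR (2, 4 and 2 at an unadjusted p under 0.05 for IFN, AZA and COMBO), where 0, 0.582 and 3.74% of all rows were called. The nearest to passing was Ehmt2 under COMBO (VFDM minus VF 0.74, adjusted p = 0.092), which rests on the VF vehicle libraries described above.

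COMBO was also set against each drug alone. Beside Ehmt1 against VF AZA, 0 of 10 passed by edgeR in VF COMBO against VF IFN (0 at an unadjusted p under 0.05) and in VFDM COMBO against VFDM IFN (1) or VFDM AZA (0), where 0.00902, 7.88 and 7.82% of all rows were called. DESeq2 called 0 in these 3, and limma voom called 1, Setdb1 in VFDM COMBO against VFDM IFN. Zfp809 in VFDM COMBO, at 48.0, 64.8 and 47.5 CPM, lay above all VFDM AZA libraries, as 5.77% of all rows did.

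The wider pathway was followed through 75 genes in lists chosen by known role, with earlier results of these data known. The counts below are therefore descriptions beside the shares of all rows. In VFDM COMBO against VFDM vehicle, 2 of the 5 listed genes for other histone H3 lysine 9 methyltransferases (Suv39h1, Suv39h2 and Setdb2) and G9a-GLP partners (Wiz and Zfp644) were higher and 0 lower, where 5.52% of all rows were called higher. Setdb2, a relative of Setdb1 that is inducible by interferon, stood at 67.5 ± 9.59 CPM in VFDM COMBO (n = 3) and 22.5 ± 2.60 CPM in VFDM vehicle (n = 4), a log2 difference of 1.59 ± 0.26 (SE, adjusted p = 3.15e-05, edgeR). Suv39h1, which trimethylates constitutive heterochromatin, stood at 63.0 ± 4.91 CPM in VFDM COMBO and 37.5 ± 1.19 CPM in VFDM vehicle, a log2 difference of 0.75 ± 0.19 (adjusted p = 0.00688). Both calls remained with each of the 7 libraries left out in turn. Setdb2 also rose in VF COMBO, to 35.8 ± 12.9 CPM, against 18.2 ± 4.36 CPM in VF vehicle (log2 difference 0.98, adjusted p = 0.00964), and was higher in VFDM COMBO than in VF COMBO (0.91, adjusted p = 0.0314), while the response itself was not shown to differ (VFDM minus VF 0.61, adjusted p = 0.338). Without VF vehicle libraries 1 and 4 the VF COMBO value was 0.85 with adjusted p = 0.149. Setdb2 was not high under COMBO alone. Its level was 32.7 ± 1.51 CPM in VF IFN and 29.0 ± 7.73 CPM in VF AZA. VFDM IFN was at 30.2 ± 7.45 CPM and VFDM AZA at 39.5 ± 9.74 CPM. VF IFN and VFDM AZA lay wholly above their vehicle groups, as 7.28 and 5.11% of all rows did, while VF AZA and VFDM IFN overlapped theirs.

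Of 7 HELLS partner and DNA methylation genes, 2 fell in the same comparison, the deleted Dnmt3a among them, 5 did not pass and 0 rose, where 10.5% of all rows were called lower. Dnmt3b, a de novo methyltransferase, stood at 47.0 ± 14.9 CPM in VFDM COMBO and 112 ± 14.5 CPM in VFDM vehicle (log2 difference -1.25 ± 0.26, adjusted p = 0.000731, edgeR). The remaining Dnmt3a signal of the deleted gene fell as well (-1.41, adjusted p = 5.09e-05), although its reads cannot be assigned to mutant or residual wild-type cells. Smchd1, a structural maintenance protein that silences the inactive X and imprinted genes, rose in each VF treatment (0.41 in IFN, 0.52 in AZA and 0.50 in COMBO, adjusted p of 0.0418, 0.0104 and 0.0045), but these calls share the VF vehicle libraries and the COMBO value was 0.37 with adjusted p = 0.112 without libraries 1 and 4. In VFDM mice Smchd1 was at 255.5 to 269 CPM under COMBO, 236 to 289 CPM under AZA and 243 to 253 CPM under IFN. All these libraries were above the VFDM vehicle range of 199 to 235 CPM, as 13.3, 5.11 and 5.87% of all rows were. Dnmt1, which copies methylation after replication, passed in none of the 22 comparisons.

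Of the histone H3.3 depositing genes 1 of 4 rose in VFDM COMBO, where 5.52% of all rows were called higher. Daxx, the H3.3 chaperone that acts at retroviruses and is also inducible by interferon, stood at 69.5 ± 19.8 CPM in VFDM COMBO and 61.4 ± 4.73 CPM in VFDM IFN, against 32.8 ± 2.91 CPM in VFDM vehicle. Its log2 differences were 1.08 in VFDM COMBO (adjusted p = 0.00116, edgeR) and 0.90 in VFDM IFN (adjusted p = 0.0298), and the VFDM IFN call was lost for 7 of the 8 libraries left out in turn. Against vehicle it did not pass in VFDM AZA (0.74, adjusted p = 0.12), VF COMBO (0.19, 0.629), VF AZA (-0.63, 0.152) or VF IFN (0.34, 0.624). Daxx was higher in VFDM AZA (1.09, adjusted p = 0.00511) and in VF COMBO (0.83, adjusted p = 0.0432) than in VF AZA. The AZA response of VFDM minus that of VF was 1.38 (adjusted p = 0.0241, edgeR interaction term). Of 15 TRIM28 partners 2 fell, the chromatin remodeller gene Chd3 (-0.75, adjusted p = 0.0215) and the histone chaperone gene Rbbp7 (-0.59, adjusted p = 0.0394), and 0 rose, near the 10.5% of all rows called lower. Neither was stable, as the Chd3 call remained in 2 and the Rbbp7 call in 0 of 7 left-out fits.

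Among 11 tested KRAB zinc finger genes, 1 fell in VFDM COMBO and 0 rose, a share near the 10.5% of all rows called lower there. It was Zfp57, which protects imprinted methylation in the embryo, at 1.48 ± 0.83 CPM in VFDM COMBO and 14.1 ± 1.32 CPM in VFDM vehicle (log2 difference -3.26, adjusted p = 0.000415, edgeR). None of the 6 listed demethylase genes, LSD1 among them, passed there. In VF COMBO 2 of 6 were higher (Kdm3a 0.63, adjusted p = 0.0105, and Kdm4c 0.55, adjusted p = 0.0458), where 4.16% of all rows were called higher. Both calls use the VF vehicle libraries described above. Of 18 listed genes that derive from retroelements or are driven by MERVL, 8 had enough counts to be tested, and 0 rose against vehicle in any of the 6 comparisons. Of all rows 5.52% were called higher in VFDM COMBO and 4.16% in VF COMBO, and with 8 genes a count of 0 cannot be set apart from these shares. Rtl5, a domesticated retrotransposon gene, fell to 5.37 ± 4.08 CPM in VFDM COMBO, against 24.8 ± 4.44 CPM in VFDM vehicle (-2.19, adjusted p = 0.00139). Each of these VFDM COMBO values stands beside the erythroid and LT-HSC marker shift given above, and the part of that shift in them was not tested.

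**Figure D4:**
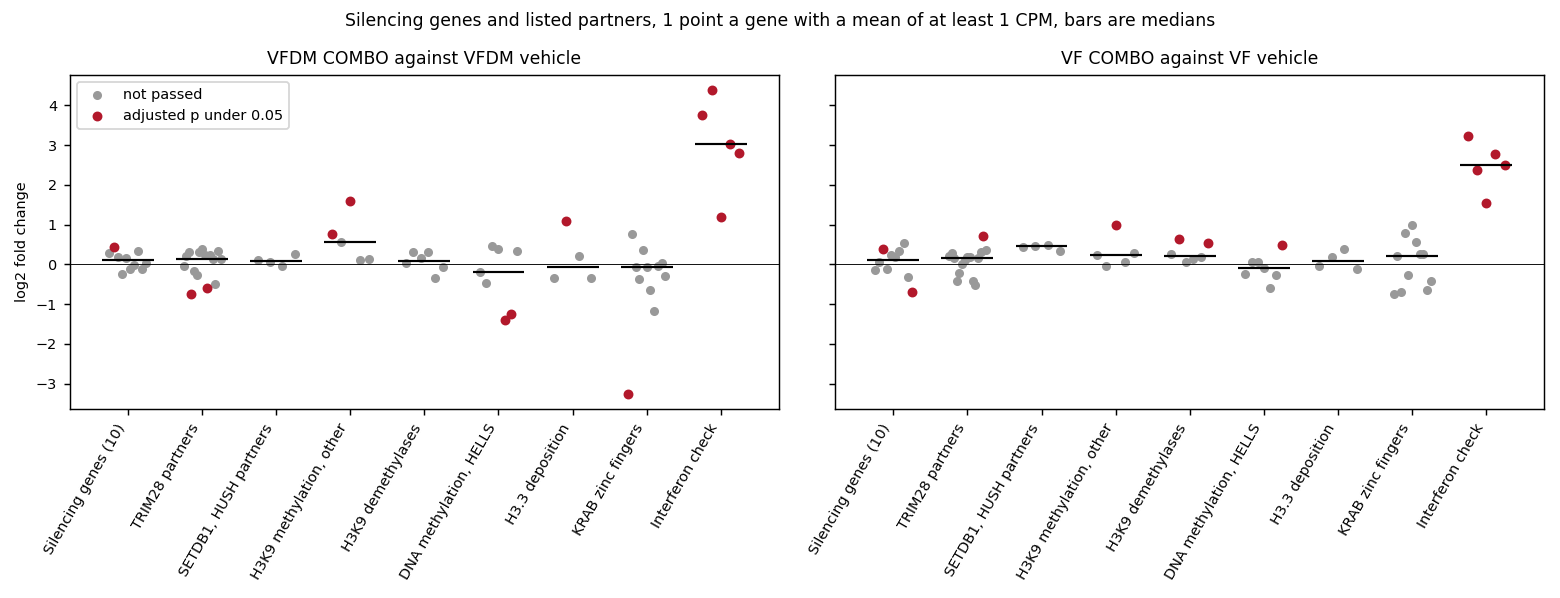
Log2 fold change (vertical axis, edgeR) of each silencing gene and listed partner with a mean of at least 1 CPM, by list, in VFDM COMBO against VFDM vehicle (left) and VF COMBO against VF vehicle (right), with red points where the adjusted p was under 0.05 and bars at list medians. Setdb2 at 1.59, Suv39h1 at 0.75 and Daxx at 1.08 are red above 0 in VFDM COMBO, Dnmt3b at -1.25 and Zfp57 at -3.26 are red below it, and the 5 interferon check genes are red in both panels.

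The 10 genes did not rise and fall as a block. Over the 45 pairs, Pearson's r of the log2 CPM across 31 libraries had a median of 0.09 and exceeded 0.5 for 5 pairs, the highest being Morc3 with Zfp809 at 0.68 (Spearman's rho 0.34). The lowest was Zfp809 with Ehmt2 at -0.54, and it was 0.44 over 29 libraries without VF vehicle 1 and 4. Morc3 with Ehmt1 was at 0.51 over all libraries and 0.82 without those 2. These values are descriptions across libraries that share groups, depth and RNA composition. Searched among 10473 well-expressed rows, the pattern most like Ehmt1 was that of Mtmr4 (r = 0.88), the most like Ehmt2 that of Crebzf (0.87), the most like Trim28 that of Mogs (0.85), the most like Setdb1 that of Fam126a (0.75), and the most like Atf7ip that of Osbpl8 (0.84), each over 31 libraries. Hells was most like Cbx1 (0.85), which encodes a heterochromatin protein, and Cenpf (0.85), a centromere protein gene of dividing cells.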

How the data were processed

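The authors deposited raw read counts per gene for 31 libraries. The stranded kit comes from the labels' protocols, and FastQC 0.11.5, STAR 2.7.10a, featureCounts, R 4.3.0 and the mm10 genome from the submitters' processing notes. No source used here names the annotation, whether counting used strand, or how multi-mapped reads were treated. Symbols, positions and exon lengths came from GENCODE vM21 (GRCm38), which matched 55227 of 55492 rows.

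Counts were fitted in R 4.3.3 with edgeR 4.0.16: rows kept by filterByExpr (minimum count 10, total 15), TMM scaling, robust quasi-likelihood tests with 1 mean per group over all 31 libraries, Benjamini-Hochberg adjustment over 22172 rows, and a threshold of 0.05. All tests were two-sided, with 22 comparisons and 95% intervals on 23 residual degrees of freedom. CPM are per TMM-scaled library. The steps were tested on simulated data. Replicate libraries differed by more than sampling noise, so all were kept. Alternatives were size factors by RLE, no filter, DESeq2 1.42.0, limma voom 3.58.1 with quality weights, the compared groups alone, protein-coding rows alone, a replicate block, and libraries left out.

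The members and lists were chosen with earlier results of these data known. Named genes were the 10 members, the label check, and at most 4 called genes per list by smallest p. The SETDB1 and HUSH partners and the other MORC genes were given by level. The main fit did not use the replicate numbers as pairs, as the labels do not say whether they pair the samples. The libraries' depth sets the counting error; it does not cover differences between mice.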

Additional observations from a re-analysis of the deposited data

Results flagged for a closer look

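In 5 of 70 gene-by-group sets of 4 libraries, 1 library stood apart from the other 3 by Dixon's criterion, which chance flags in about 1 of 20 sets. Setdb1 was at 103.1 CPM in VF vehicle library 1, against 84.4 to 85.8 CPM in the other 3. Setdb1 was at 125.3 CPM in VFDM AZA library 4, against 89.1 to 93.9 CPM. Morc3 was at 154.3 CPM in VFDM vehicle library 4, against 136 to 138 CPM. Hells was at 147.9 CPM in VFDM IFN library 3, a library whose Dnmt3a level goes against its label, against 107 to 113 CPM. Zfp809 was at 29.05 CPM in VFDM AZA library 3, against 39.2 to 40.7 CPM.

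In 2 of 30 treatment responses every treated library lay on one side of the vehicle mean in one genotype and on the other side in the other. For Trim28 under IFN the log2 difference was 0.24 in VFDM and -0.30 in VF, and VFDM minus VF was 0.5365 (adjusted p = 0.601, edgeR interaction term). For Zfp809 under AZA it was -0.19 in VFDM and 0.85 in VF, and VFDM minus VF was -1.046 (adjusted p = 0.209). Neither difference passed the test.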

How the results depend on the processing

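Counts of the 10 genes called moved by over 1.5 times in 30 results under other settings and by less in 163, and no called gene changed direction. VF COMBO went to 0 with limma voom, without libraries under 20000 detected rows, without VF vehicle 1 and 4 (added after seeing the data) and with the compared groups alone. VFDM COMBO went to 0 with no filter (Setdb1 adjusted p = 0.0559) and with the replicate block (0.0507), and to 2 (Trim28, Setdb1) with voom and without libraries under 20000 rows. The COMBO average went to 2 with RLE and 3 with DESeq2 or protein-coding rows; with voom, without libraries under 20000 rows and without VF vehicle 1 and 4 its 1 gene was Setdb1 in place of Atf7ip. VF COMBO against VF AZA went to 0 with RLE, no filter, voom, block, compared groups alone and without libraries under 20000 rows. Any difference went to 0 with RLE, no filter, block or without VF vehicle 1 and 4, and to 2 (Trim28, Setdb1) without libraries under 20000 rows; with voom its 1 gene was Trim28 in place of Ehmt2. Counts of 0 went to 1 for VF IFN (DESeq2), VFDM IFN (voom), VFDM vehicle against VF vehicle and VFDM COMBO against VFDM IFN (voom, and without libraries under 20000 rows) and VFDM COMBO against VFDM AZA (without those libraries), and to 2 for VF AZA (DESeq2). The cause of each was not tested.

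With 1 library left out, the counts ran 0 to 3 in VF COMBO, VF AZA and VFDM against VF vehicle, 0 to 1 in VFDM COMBO, VF IFN, VF COMBO against VF AZA and the AZA and COMBO interactions, 1 to 4 for the COMBO average and 0 to 2 for any difference. Log2 differences ran 0.34 to 0.51 for Atf7ip and -0.87 to -0.40 for Ehmt2 in VF COMBO, 0.41 to 0.59 for Setdb1 in VFDM COMBO and -0.53 to -0.28 for Ehmt1. Same-numbered libraries of different groups had a mean correlation of 0.003 over 105 pairs, so the block has no support as a pairing. Leaving out the libraries under 20000 detected rows leaves VF COMBO with 1 library, assumed to vary like the other groups.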
